A study of Astyanax mexicanus with 22 samples.

Results

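The genes sycp1, hormad1, mnd1, MSH4 and YTHDC2 all serve meiosis, and they were selected by their symbol from a table of counts per gene in ovaries of the fish Astyanax mexicanus. Each symbol stood on a single row, so 5 of the 27420 gene rows were described, and all 5 were abundant enough to be among the 15607 genes tested. Bulk RNA sequencing was done on right-side ovaries of starved and control animals of the Pachón cavefish and of the surface fish, all labelled wild type, in batches labelled old and new. The Pachón ovaries gave 4 starved and 4 control libraries in the old batch and 2 starved and 2 control libraries in the new batch. The surface ovaries gave 2 starved and 4 control libraries in the old batch and 2 starved and 2 control libraries in the new batch. Fish of roughly 500 and 1200 days post fertilization are named in the series design, but not which age a batch had, and the length of starvation is not stated. The labels do not say whether replicates are separate fish, so p-values measure the spread between these samples, which may be technical.

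In meiosis, homologous chromosomes are paired, cut, joined by the synaptonemal complex and recombined before they separate. The axis of each chromosome carries HORMA-domain proteins, and transverse filaments zip the axes of the homologs together. Breaks are repaired by strand exchange on the homolog, and some repair intermediates are stabilised to become crossovers. In zebrafish, the adult ovary keeps oogonia and young oocytes in these stages beside large oocytes that have passed them and are arrested. In bulk ovaries, fewer cells of a type and less RNA per cell cannot be told apart.

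Levels are counts per 1000000 gene counts (CPM), scaled by TMM factors, and levels of different genes are not set against each other because the counts are not corrected for length. Libraries held 4860620 to 7513790 gene counts. Changes are log2 fold changes of edgeR's quasi-likelihood model ± SE, and a gene was called at a p under 0.05 after Benjamini-Hochberg adjustment, which covered every tested gene. The tissue label was checked with oocyte markers: bmp15 lay between 81.0 and 146 CPM and zar1 between 471 and 1800 CPM over the 22 libraries. Starved surface replicate 2 of the new batch stood apart on the third principal component, at -92.0, where the other libraries were at -20.3 or above. For sycp1, hormad1, mnd1, MSH4 and YTHDC2, values without it are given beside the starvation results of surface fish over both batches. They are also given where leaving it out ended a call of a named meiosis gene. For the cell type markers such values were not computed.

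The synapsis genes sycp1 and hormad1 were higher in Pachón than in surface ovaries, both in control and in starved fish. For mnd1, MSH4 and YTHDC2 no such difference was called in control fish, and of these 3 only MSH4 was called in starved fish, where it was lower in Pachón ovaries. In starved against control fish, hormad1 was higher in surface ovaries, the 1 call for starvation among the 5 genes when batches were averaged. This call, and that of MSH4 between morphs, were each lost in some fits that left out a single library.

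**Figure D1:**
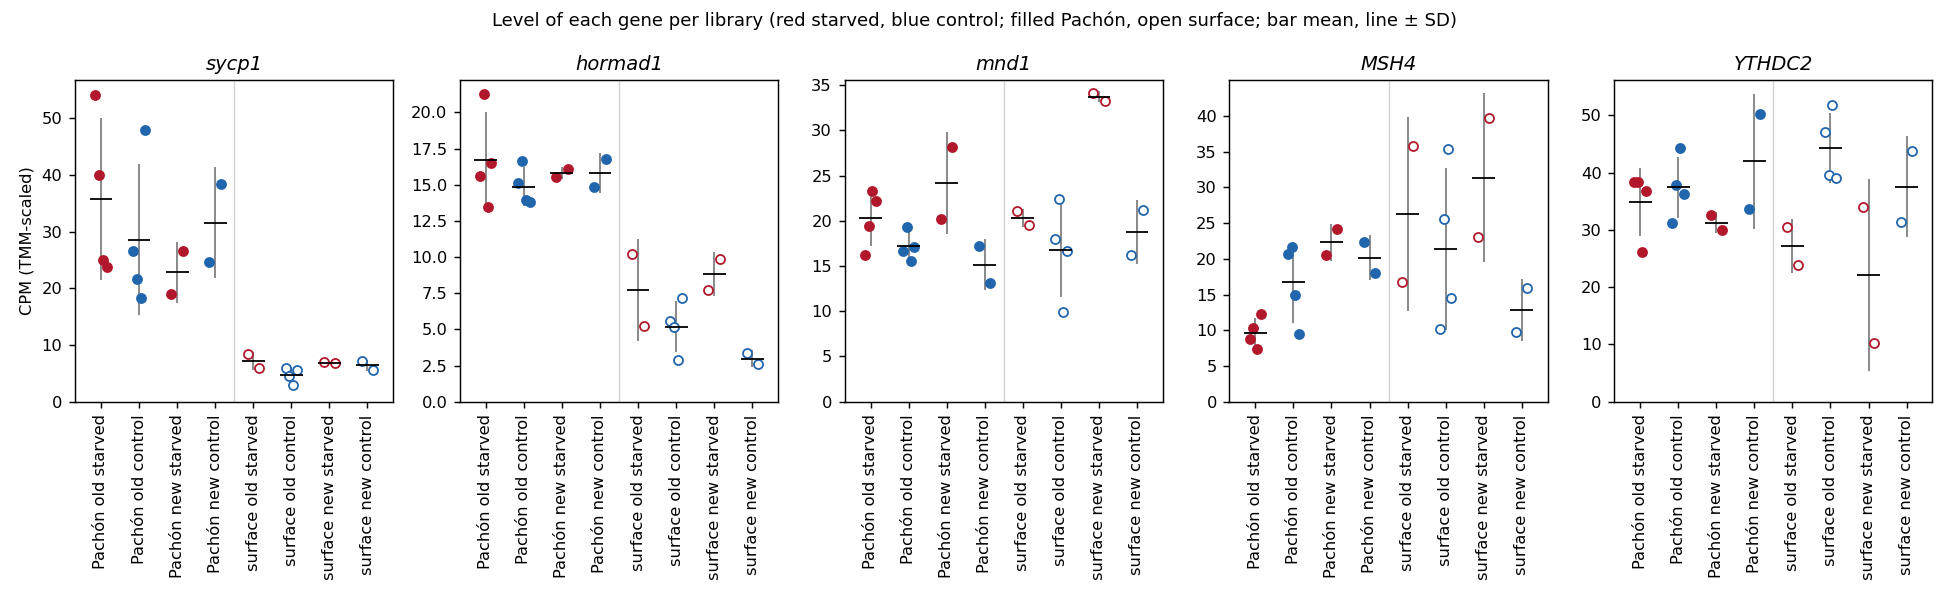
Level of sycp1, hormad1, mnd1, MSH4 and YTHDC2 in each of the 22 libraries, in CPM from 0 on a separate vertical axis for each gene, by morph, batch and treatment. Points are libraries, horizontal bars are group means and vertical lines ± SD. All 12 Pachón libraries lie above all 10 surface libraries for sycp1 (18.2 to 54.1 against 2.86 to 8.35 CPM) and for hormad1 (13.5 to 21.3 against 2.59 to 10.2 CPM), and over all libraries the morphs overlap for the other genes.

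The gene sycp1 (ENSAMXG00000016490) encodes the transverse filament protein of the synaptonemal complex, the zip between paired chromosomes. Old-batch levels were 54.1, 40.0, 24.9 and 23.8 CPM in starved and 26.5, 21.6, 18.2 and 47.8 CPM in control Pachón ovaries, against 8.35 and 6.00 CPM in starved and 5.93, 4.57, 2.86 and 5.62 CPM in control surface ovaries. New-batch levels were 19.0 and 26.6 CPM in starved and 24.7 and 38.5 CPM in control Pachón ovaries, against 6.92 and 6.87 CPM in starved and 7.11 and 5.67 CPM in control surface ovaries. Every Pachón library was above every surface library, which was also so for 4.13% of all genes tested. In control fish the change, Pachón against surface, was 2.44 ± 0.29 (edgeR adjusted p = 3.76e-06), a 5.43-fold higher level. In starved fish it was 2.01 ± 0.31 (edgeR adjusted p = 7.1e-05), a 4.04-fold higher level.

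The difference in sycp1 was present within each batch. Among control fish it was 2.58 ± 0.34 in old-batch and 2.30 ± 0.465 in new-batch ovaries (edgeR adjusted p = 1.58e-05 and 0.0025). Among starved fish it was 2.31 ± 0.42 in old-batch and 1.72 ± 0.46 in new-batch ovaries (edgeR adjusted p = 0.000607 and 0.0154). The call in starved fish of the new batch was lost on leaving out Pachón starved replicate 2 (adjusted p = 0.106), surface starved replicate 1 (0.0541) or surface starved replicate 2 (0.0634) of that batch, with changes of 1.46 to 1.73. The Pachón libraries differed more among themselves than counting error allows. In the old batch they spread 2.27-fold in starved and 2.63-fold in control fish. Over all groups of both morphs, the chi-square of sycp1 counts against equal levels within groups was 17.7 per degree of freedom. It was 2.77 for hormad1, 3.86 for mnd1, 16.1 for MSH4 and 10.3 for YTHDC2. The SD of sycp1 within groups was larger than that of 80.4% of the 500 genes nearest to it in level.

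The gene hormad1 (ENSAMXG00000018798) encodes a HORMA-domain protein of the chromosome axis, which in mice promotes double-strand breaks and synapsis and leaves the axis once the homologs are zipped. Old-batch levels were 15.6, 21.3, 13.5 and 16.5 CPM in starved and 15.1, 16.6, 13.9 and 13.8 CPM in control Pachón ovaries, against 10.2 and 5.21 CPM in starved and 5.58, 5.18, 2.86 and 7.15 CPM in control surface ovaries. New-batch levels were 15.5 and 16.1 CPM in starved and 14.9 and 16.8 CPM in control Pachón ovaries, against 7.72 and 9.87 CPM in starved and 3.38 and 2.59 CPM in control surface ovaries. The Pachón libraries were again all above the surface libraries. Over both treatments and batches they lay within 1.58-fold, where the surface libraries spread 3.95-fold. These ranges rest on unlike counts, 74 to 164 in Pachón and 15 to 71 in surface libraries. The surface range also spans the starvation difference given below. The SD of hormad1 within groups was larger than that of 43.4% of the 500 genes nearest to it in level. The change, Pachón against surface, was 1.95 ± 0.225 in control fish (edgeR adjusted p = 2.43e-06), a 3.88-fold higher level, and 0.98 ± 0.23 in starved fish (edgeR adjusted p = 0.00261), a 1.97-fold higher level.

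By batch, the hormad1 difference between morphs was 1.51 ± 0.25 in old-batch and 2.40 ± 0.37 in new-batch control fish (edgeR adjusted p = 0.000176 and 0.000251). In starved fish it was 1.11 ± 0.305 in the old batch (edgeR adjusted p = 0.0111) and 0.85 ± 0.34 in the new batch, which was not called (edgeR adjusted p = 0.0967). The old-batch call in starved fish was lost when surface starved replicate 2 was left out (0.71, adjusted p = 0.184).

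Of the 5 genes, 2 were called higher and 0 lower in Pachón control fish, where 34.6% of all genes were called (16.6% higher, 18% lower). Among starved fish 2 were called higher and 1 lower, where 36% of all genes were called (18.3% higher and 17.7% lower). With 5 genes these shares are coarse, and nothing about the group as a whole was read from them. Within batches, control fish had the same 2 genes called in the old (30.4% of all genes) and the new batch (14.9%), and starved fish had 3 (sycp1, hormad1 and MSH4) in the old batch (28.4%) and 1 (sycp1) in the new (16.7%).

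**Figure D2:**
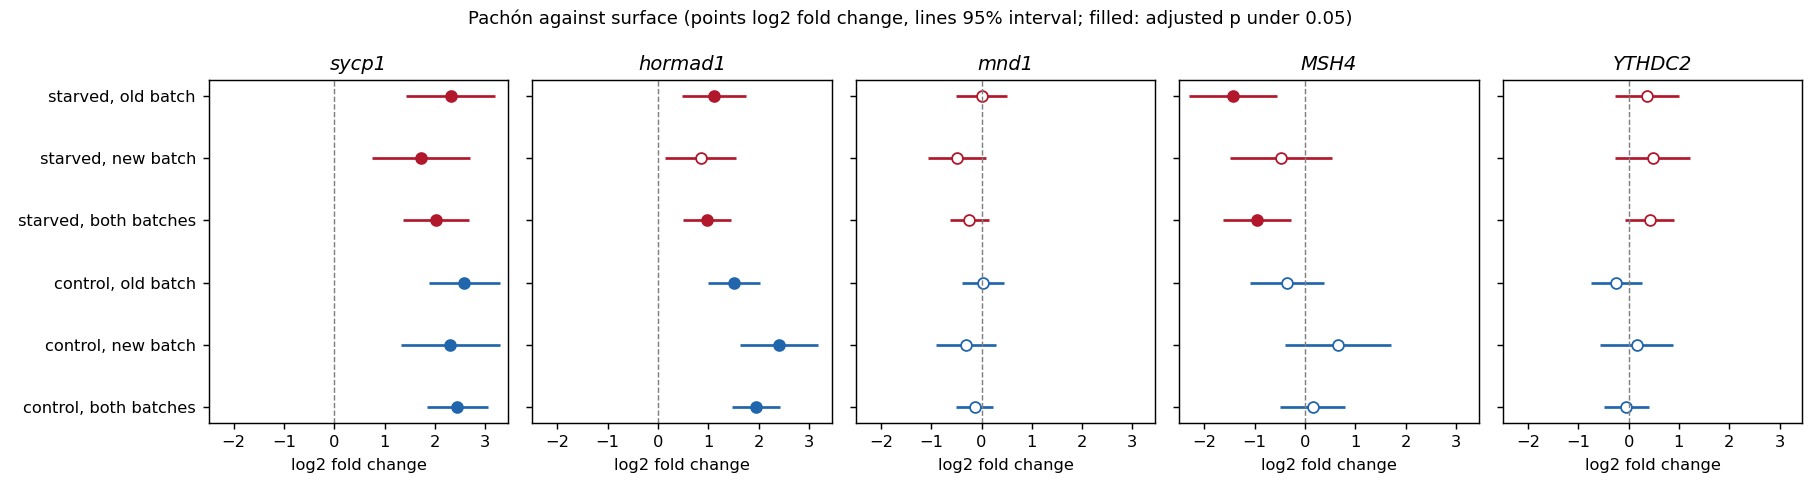
Pachón against surface, log2 fold change on the horizontal axis, for each gene in starved (red) and control (blue) fish, in each batch and over both. Points are estimates, lines 95% intervals, and filled points have an adjusted p under 0.05. sycp1 and hormad1 lie right of 0 in each row, between 0.85 and 2.58, and MSH4 lies at -1.43 in starved fish of the old batch.

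The gene mnd1 (ENSAMXG00000044051) encodes a partner of the protein of psmc3ip, and the pair assists recombinases such as DMC1 in strand exchange. Old-batch levels were 16.3, 19.5, 23.3 and 22.2 CPM in starved and 16.7, 19.3, 15.5 and 17.1 CPM in control Pachón ovaries, against 21.0 and 19.6 CPM in starved and 18.0, 22.4, 9.92 and 16.7 CPM in control surface ovaries. New-batch levels were 20.2 and 28.2 CPM in starved and 17.2 and 13.1 CPM in control Pachón ovaries, against 34.1 and 33.3 CPM in starved and 16.2 and 21.2 CPM in control surface ovaries. New-batch starved surface fish were the highest of all groups, and in both morphs the new-batch starved libraries lay above their controls. Starved and control groups of that batch were likewise apart, in either direction, for 43.9% of all genes in Pachón and 41.2% in surface fish. The morphs overlapped except in starved fish of the new batch, where both Pachón libraries were below both surface libraries (groups apart for 49.9% of all genes). The change, Pachón against surface, was -0.14 ± 0.17 in control fish (95% interval -0.50 to 0.23) and -0.24 ± 0.18 in starved fish (-0.62 to 0.14), neither of them called (edgeR adjusted p = 0.582 and 0.327).

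The gene MSH4 (ENSAMXG00000001485) encodes a MutS homolog that, with the protein of MSH5, clamps recombination intermediates that become crossovers. Old-batch levels were 8.73, 10.2, 7.41 and 12.3 CPM in starved and 20.6, 21.6, 15.0 and 9.50 CPM in control Pachón ovaries, against 16.7 and 35.8 CPM in starved and 10.1, 25.6, 35.3 and 14.5 CPM in control surface ovaries. New-batch levels were 20.5 and 24.2 CPM in starved and 22.4 and 18.0 CPM in control Pachón ovaries, against 23.0 and 39.7 CPM in starved and 9.81 and 15.9 CPM in control surface ovaries. Replicates of MSH4 were far apart, up to 3.49-fold within the old surface controls, and the lowest group was the starved Pachón fish of the old batch, which did not overlap the starved surface fish of that batch (so for 48.9% of all genes tested). Its SD within groups, 0.55 on the log2 scale, was larger than that of 90.6% of the 500 genes nearest to it in level.

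In starved fish MSH4 was lower in Pachón than in surface ovaries, at -0.96 ± 0.32 (edgeR adjusted p = 0.0263), a ratio of 0.515. Old-batch fish had a change of -1.43 ± 0.415 and new-batch fish one of -0.49 ± 0.485 (edgeR adjusted p = 0.0152 and 0.546). The call over both batches was lost on leaving out new-batch Pachón starved replicate 1 (adjusted p = 0.0918) or 2 (0.0582), new-batch surface starved replicate 2 (0.118) or old-batch surface starved replicate 2 (0.185), and without the last of these the old-batch change was -0.775 (0.326). It was also lost with voom and sample weights (-0.85, adjusted p = 0.124). In control fish the change was 0.15 ± 0.305 (95% interval -0.49 to 0.79, edgeR adjusted p = 0.743), and its sign differed between batches, at -0.35 ± 0.35 for the old and 0.65 ± 0.50 for the new one (edgeR adjusted p = 0.473 and 0.415), where the morphs did not overlap (so for 60.2% of all genes tested).

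The gene YTHDC2 (ENSAMXG00000008735) encodes an RNA helicase with a domain that reads m6A-modified RNA, which in mice germ cells need to carry on with the meiotic program. Old-batch levels were 38.3, 38.4, 26.1 and 36.7 CPM in starved and 31.2, 37.8, 44.3 and 36.3 CPM in control Pachón ovaries, against 30.5 and 23.8 CPM in starved and 47.1, 39.6, 51.7 and 38.99 CPM in control surface ovaries. New-batch levels were 32.5 and 30.0 CPM in starved and 33.7 and 50.2 CPM in control Pachón ovaries, against 34.0 and 10.3 CPM in starved and 31.3 and 43.7 CPM in control surface ovaries. The value of 10.3 CPM, in the surface library that stood apart, rests on 48 counts and was the lowest of the 22, and the next lowest was 23.8 CPM. The change, Pachón against surface, was -0.04 ± 0.21 in control fish (95% interval -0.48 to 0.40) and 0.42 ± 0.23 in starved fish (-0.07 to 0.91), neither called (edgeR adjusted p of 0.9 and 0.171). On leaving out new-batch surface starved replicate 1, which keeps the library at 10.3 CPM as the only starved one of that group, the change in starved fish was 0.98 and was called (adjusted p = 0.000694), and without that library, YTHDC2 had a change of 0.12 (adjusted p = 0.618).

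Starved and control fish were compared next. In surface ovaries over both batches, hormad1 was higher in starved fish by 1.06 ± 0.24 (edgeR adjusted p = 0.0128), a 2.08-fold higher level, and was the 1 called gene of the 5, where 7.79% of all genes were called (2.42% higher and 5.37% lower). By batch the change was 0.57 ± 0.30 in the old batch (edgeR adjusted p = 0.43), where 0 of the 5 and 0.147% of all genes were called, while new-batch fish had 1.55 ± 0.38 (edgeR adjusted p = 0.027), where it was again the 1 call and 4.18% of all genes were called. The starved libraries of the new batch did not overlap their controls (so for 41.2% of all genes tested), and those of the old batch did, with 10.2 and 5.21 CPM in starved against 2.86 to 7.15 CPM in control fish.

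The hormad1 call depended on how the spread was estimated and on single libraries. Over both batches it was lost when the surface libraries were fitted alone (1.06, adjusted p = 0.15), where edgeR called no gene at all (the smallest adjusted p was 0.0552, and 2919 genes had p under 0.05 before adjustment), and with voom and sample weights (1.02, adjusted p = 0.208). Leaving out a single surface library also ended it: old-batch starved replicate 1 (0.77, adjusted p = 0.0946), new-batch control replicate 2 (0.97, adjusted p = 0.0703) or new-batch starved replicate 2, which stood apart (0.97, adjusted p = 0.0569). In the new batch alone it was lost without replicate 1 (adjusted p = 0.083) or 2 (0.179) of the controls, or replicate 2 of the starved fish (0.124).

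Of the other genes in surface ovaries over both batches, mnd1 had a change of 0.56 ± 0.18, MSH4 of 0.79 ± 0.32, sycp1 of 0.35 ± 0.32 and YTHDC2 of -0.72 ± 0.23 (edgeR adjusted p = 0.0663, 0.132, 0.517 and 0.0627). Without the library that stood apart, the change was 0.57 for mnd1, 0.57 for MSH4 and 0.35 for sycp1 (edgeR adjusted p = 0.144, 0.452 and 0.685). The values of mnd1 and YTHDC2 were near the threshold and the tools differed on them. DESeq2 called both (adjusted p = 0.0381 and 0.027), and limma on the scaled CPM called YTHDC2 (adjusted p = 0.036). Without replicate 2 of the old controls, edgeR called mnd1 as well (0.65, adjusted p = 0.0315), and in the new batch alone it did so without replicate 3 of the old controls, which enter the estimate of spread (0.85, adjusted p = 0.0394). The value of YTHDC2 rested in part on replicates of the starved new batch: it was -0.42 (adjusted p = 0.21) without replicate 2 and -1.28 (adjusted p = 0.00022) without replicate 1. In the old batch, which lacks that library, it was -0.70 ± 0.31 (edgeR adjusted p = 0.318), with 30.5 and 23.8 CPM in starved against 38.99 to 51.7 CPM in control fish, ranges that did not overlap (so for 27.7% of all genes tested).

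**Figure D3:**
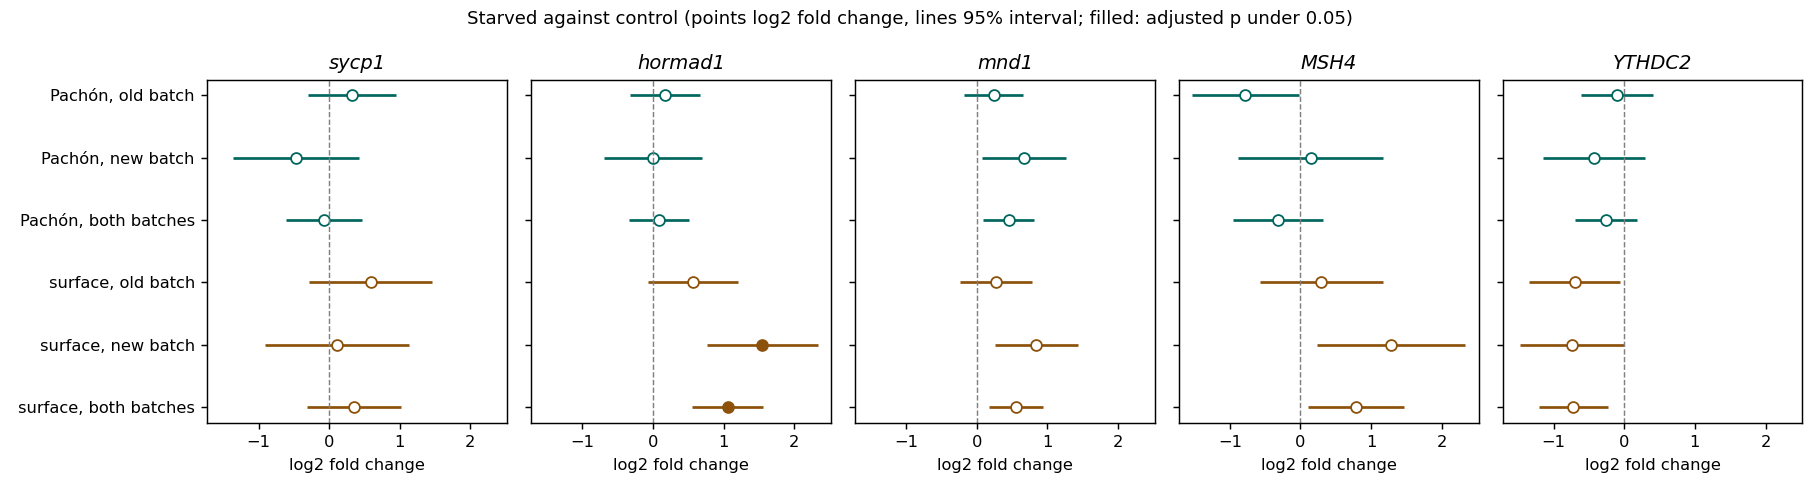
Starved against control, log2 fold change on the horizontal axis, for each gene in Pachón (green) and surface (brown) ovaries, in each batch and over both. Points are estimates, lines 95% intervals, and filled points have an adjusted p under 0.05. The filled points are hormad1 in surface ovaries, at 1.55 in the new batch and 1.06 over both.

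Over both batches 0 of the 5 genes passed the threshold for starvation in Pachón ovaries, as did 0 of all genes by edgeR (0%, with 1142 genes at an unadjusted p under 0.05, 9 genes called by DESeq2 and 1 by limma on the scaled CPM). The change was 0.46 ± 0.17 for mnd1, 0.08 ± 0.20 for hormad1, -0.07 ± 0.26 for sycp1, -0.32 ± 0.30 for MSH4 and -0.26 ± 0.21 for YTHDC2 (edgeR adjusted p = 0.635, 0.946, 0.964, 0.816 and 0.783). By batch the number was also 0, with 0.00641% of all genes called in the old batch and 0% in the new one. For mnd1 the change had the same sign in both batches, at 0.24 ± 0.20 (old) and 0.67 ± 0.28 (new), as it had in surface ovaries, at 0.27 ± 0.24 (old) and 0.85 ± 0.28 (new). None of these 4 values was called (edgeR adjusted p = 1, 0.828, 0.659 and 0.0871). The 95% interval for hormad1 was -0.34 to 0.51 in Pachón and 0.555 to 1.56 in surface ovaries. The difference between morphs was not called in its direct test, given below.

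The difference of the response between morphs, Pachón minus surface, was tested directly. It was -0.97 ± 0.315 for hormad1 and -1.11 ± 0.44 for MSH4 (unadjusted p = 0.00596 and 0.0222 in edgeR's quasi-likelihood test, adjusted p = 0.293 and 0.438). Neither was called, nor were sycp1 (-0.43 ± 0.41), mnd1 (-0.10 ± 0.25) or YTHDC2 (0.46 ± 0.31), where 0.0256% of all genes were called. Without the library that stood apart it was -0.88 for hormad1 and -0.89 for MSH4 (edgeR adjusted p = 0.403 and 0.604). The response was thus not shown to differ between morphs for any of the 5 genes. Without new-batch surface starved replicate 1 the difference for YTHDC2 was 1.02, a fit that keeps only the library that stood apart in that group. Without the library that stood apart the difference for YTHDC2 was 0.16. The response was also not called different between batches for any of the 5 genes in surface (0.352% of all genes called) or Pachón ovaries (0%, with 481 genes at an unadjusted p under 0.05), with hormad1 at -0.98 ± 0.485 for old minus new in surface ovaries (edgeR adjusted p = 0.523), or -0.80 without the library that stood apart (adjusted p = 0.517).

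Old and new batch were compared in control fish, where 0 of the 5 genes were called in either morph (7.36% of all genes in surface and 0.032% in Pachón ovaries) or over both (1.24%). The largest values were those of hormad1, at 0.80 ± 0.34 for old against new in surface ovaries, and of MSH4, at 0.73 ± 0.44 (edgeR adjusted p = 0.167 and 0.36). In Pachón ovaries the values of the 5 genes lay between -0.27 ± 0.43 (MSH4) and 0.18 ± 0.25 (mnd1). By the test of that difference, the batch change was not called different between morphs for any of the 5 genes (1.02% of all genes called), with hormad1 at -0.89 ± 0.44 for Pachón minus surface (edgeR adjusted p = 0.398).

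Among the old surface controls, replicate 3 had the lowest level of sycp1, hormad1 and mnd1 (2.86, 2.86 and 9.92 CPM) and the highest of MSH4 and YTHDC2 (35.3 and 51.7 CPM). Among the old Pachón controls, replicate 4 had the highest level of sycp1 (47.8 CPM) and the lowest of MSH4 (9.50 CPM). In new-batch starved Pachón fish, sycp1, hormad1, mnd1 and MSH4 were all higher in replicate 2 than in replicate 1, and YTHDC2 was lower. As a measure of likeness, the root mean square difference of log2 CPM, centred for each gene over the 22 libraries, was smallest between sycp1 and hormad1 (0.62) of the 10 pairs and largest between sycp1 and MSH4 (1.62). Since the libraries share morph, batch and treatment, this is a description of these libraries.

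By the same measure over 22 libraries, likeness was searched among the tested genes that have a symbol. The genes most like hormad1 were znf395a (0.34), nfil3-5 (0.35) and htatsf1 (0.38). Those most like sycp1 were skap1 (0.50), gstt2 (0.50) and crygm3 (0.52), of which skap1 and crygm3 averaged only 1.73 and 0.737 CPM. Those most like mnd1 were ndel1a, nsrp1 and NTHL1 (0.24 each), and those most like YTHDC2 were phf8 (0.145), zmpste24 (0.15) and traf6 (0.17). The genes zgc:194224, nmt1a and AP3B1 were most like MSH4 (0.50, 0.51 and 0.51), where its own SD over the libraries was 0.68. None of these 15 genes is in the meiosis lists.

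The wider meiotic machinery was taken from 7 lists of known meiosis genes, in which 31 genes besides the 5 were tested. In control fish 7 of these were higher and 9 lower in Pachón ovaries, and in starved fish 2 were higher and 9 lower. The median change was -0.01 and -0.10 in these comparisons, against -0.01 and 0.00 over all genes. The share called was 51.6% and 35.5%, against 34.6% and 36% of all genes. With sycp1 and hormad1 counted in, the synaptonemal complex and axis lists each held called genes on both sides of 0.

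The synaptonemal complex genes found besides sycp1 were sycp3 and syce2, which encode a lateral element and a central element protein. Unlike sycp1, sycp3 was lower in Pachón ovaries, at -2.35 ± 0.87 in control and -2.80 ± 0.78 in starved fish (edgeR adjusted p = 0.0436 and 0.00877). Its level was low in both morphs, at 0 to 0.908 CPM in Pachón libraries (24 counts in 12 libraries) and 0.144 to 5.52 CPM in surface libraries (114 counts in 10 libraries). The gene syce2 had 1.31 ± 0.57 in control and 1.78 ± 0.70 in starved fish, not called (edgeR adjusted p = 0.0825 and 0.0543).

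Among axis and cohesin genes, rad21l1, which encodes a meiotic kleisin of the cohesin ring, was lower in Pachón ovaries in both treatments (-0.64 ± 0.17 in control and -1.17 ± 0.175 in starved fish, edgeR adjusted p = 0.00664 and 4.69e-05). Besides hormad1 it was the 1 gene of the lists that was called for starvation in surface ovaries, at 0.73 ± 0.175 (edgeR adjusted p = 0.0167). By batch its response was 0.29 ± 0.22 (old) and 1.18 ± 0.27 (new), with edgeR adjusted p = 0.61 and 0.0216. As for hormad1, the batch with a call was the new one. The response of rad21l1 was not called different between batches (-0.89 for old minus new, edgeR adjusted p = 0.381). Without the library that stood apart this difference was -0.29. The level of rad21l1 averaged 37.0 ± 18.1 CPM in starved and 16.2 ± 0.0332 CPM in control surface fish of the new batch (SD, n = 2 each). The starved values were 24.1 and 49.8 CPM. Without the library that stood apart, the starvation call of rad21l1 was lost, at 0.43 over both batches and 0.57 in the new one (edgeR adjusted p = 0.136 and 0.265), and its call between morphs in starved fish was kept (-0.87, adjusted p = 0.000258). The kleisin gene rec8b had 89 counts in the 12 Pachón and 11 in the 10 surface libraries, 7 of which had none. It was among the genes tested, but only its counts are given here.

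Among break and strand exchange genes, spo11, whose product makes the double-strand breaks, was higher in Pachón ovaries, at 2.04 ± 0.54 in control and 1.45 ± 0.55 in starved fish (edgeR adjusted p = 0.00661 and 0.0475). It lay between 6.57 and 13.5 CPM in Pachón and between 0 and 13.8 CPM in surface libraries, so the morphs overlapped. Without the library that stood apart, its call in starved fish was lost (1.13, edgeR adjusted p = 0.14). The gene psmc3ip, whose product pairs with that of mnd1, was not called (-0.29 ± 0.12 in control and -0.21 ± 0.13 in starved fish, edgeR adjusted p = 0.0657 and 0.213). The gene swi5, which encodes an accessory factor of strand exchange, was lower in Pachón ovaries (-0.96 ± 0.20 in control and -1.32 ± 0.21 in starved fish, edgeR adjusted p = 0.0011 and 9.03e-05), and so was zswim7, which encodes a factor of homologous recombination (-0.93 ± 0.20 and -0.85 ± 0.21, edgeR adjusted p = 0.00144 and 0.00414). The meiosis-specific recombinase gene dmc1 was barely detected, with 9 counts in 12 Pachón and 49 in 10 surface libraries. It was likewise tested, and only its counts are given.

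The nuclease gene exo1 was higher in Pachón control fish (0.61 ± 0.13, edgeR adjusted p = 0.00125), and hells, a chromatin remodeller gene, was lower in control fish (-0.43 ± 0.09) and starved fish (-0.26 ± 0.09; edgeR adjusted p = 0.000829 and 0.0387). Of the 4 telomere attachment genes 0 were called in either treatment. Among the m6A genes, ythdf3, which encodes a cytoplasmic m6A reader, was lower in Pachón ovaries (-0.24 ± 0.07 in control and -0.30 ± 0.08 in starved fish, edgeR adjusted p = 0.0133 and 0.00457). The genes sycp3, syce2, rec8b, spo11, psmc3ip and dmc1 were chosen for mention after their values had been seen.

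**Figure D4:**
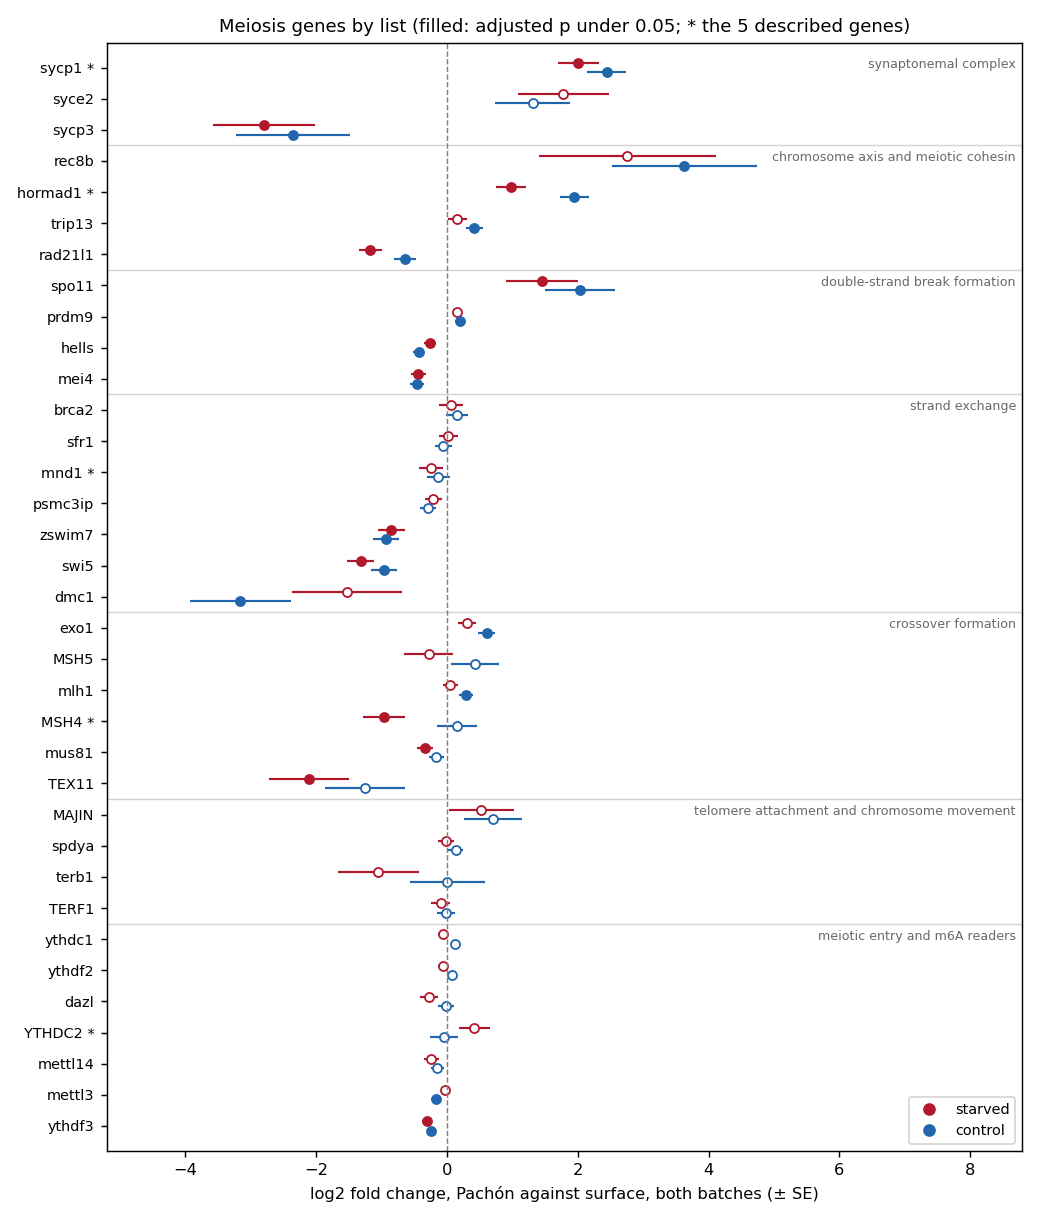
Pachón against surface, log2 fold change ± SE on the horizontal axis, for tested meiosis genes grouped by list, in starved (red) and control (blue) fish over both batches. Filled points have an adjusted p under 0.05, and an asterisk marks sycp1, hormad1, mnd1, MSH4 and YTHDC2. The synaptonemal complex genes lie on both sides of 0, with sycp1 at 2.01 and 2.44 and sycp3 at -2.80 and -2.35.

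Markers of other cells moved with some of these comparisons. Of all genes tested, 7.79% were called for starvation in surface ovaries, and 34.6% in control and 36% in starved fish between morphs. With so few markers in a list, the share of them called is coarse. In surface ovaries 9 of 9 tested stroma and smooth muscle markers were lower in starved fish, with a median change of -3.30. So were 3 of 5 granulosa, 2 of 2 theca and 2 of 5 leukocyte markers. The median was 0.32 for 6 oocyte markers (1 called higher, 0 lower) and 0.31 for 7 germ cell markers (0 called). These germ cell markers were piwil1, piwil2, ddx4, dazl, dnd1, tdrd1 and tdrd9. They were not read as marking an early stage, and nanos2 and nanos3 were searched but not found. The summed stroma and smooth muscle level was 23.7 to 24.7 CPM in starved and 190 to 256 CPM in control surface fish of the new batch, and 11.8 to 17.4 against 27.3 to 79.4 CPM in the old batch. No marker row of that list was without counts in any group. The summed oocyte marker level was 2890 to 5700 CPM in starved and 2400 to 2880 CPM in control surface fish of the new batch. In the old batch it was 3080 to 3170 against 2340 to 2960 CPM. Marker values without the library that stood apart were not computed. Markers of other tissues also differed between the morphs. The summed level of 6 skeletal muscle markers was 111 to 830 CPM in Pachón and 14.3 to 70.4 CPM in surface libraries. This sum was carried largely by ckmb (13 to 828 CPM over the 22 libraries), and the next highest, acta1b, reached 8.91 CPM. Of the 2 tested, 1 was called higher in control and in starved fish. The sum of 8 rows of gut and pancreas markers was 3.11 to 6.76 CPM in Pachón and 11.5 to 44.1 CPM in surface libraries. Of the 3 tested, 2 were called lower in control fish, and 2 lower and 1 higher in starved fish. A row of CELA1 reached 33.2 CPM over the 22 libraries, and the next highest, of CPA1, 10.7 CPM. Among control fish, 0 of 9 stroma and smooth muscle and 0 of 2 theca markers were called, 1 of 5 granulosa and 1 of 4 hepatocyte markers were lower, and 1 of 5 leukocyte markers was higher. Among starved fish, the leukocyte sum was 30.0 to 54.6 CPM in Pachón and 6.48 to 8.53 CPM in surface libraries. The theca sum was 5.64 to 11.5 CPM in Pachón and 0.288 to 1.5 CPM in surface libraries. In these fish 2 of 5 leukocyte and 2 of 2 theca markers were called higher. Over the 22 libraries the highest level of a theca marker was 19.3 CPM for lhcgr, against 4.46 CPM for cyp17a1 and 1.13 CPM for star. In Pachón against surface ovaries, 1 of 6 oocyte markers was higher and 1 lower in control fish (median 0.01). Of the 7 germ cell markers, 1 was higher and 1 lower in control fish (median 0.12). In starved fish, 0 oocyte markers were higher and 1 lower, and 1 germ cell marker was higher and 2 lower. There, 9 of 9 stroma and smooth muscle markers were higher. The part of these differences in the results above was not tested.

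Neighbouring genes in the RefSeq annotation of the assembly AstMex3_surface, which may differ from the build behind the counts, were looked up for the 4 genes found there by symbol. Coding genes overlapping hormad1, mnd1 or MSH4 were not listed, and 1 overlapped sycp1, namely si:ch211-105j21.9, which had 17 counts in all 22 libraries. The neighbours of hormad1, ensab and onecutl, were not called for morph in control fish (-0.30 ± 0.19 and -0.40 ± 0.52, edgeR adjusted p = 0.242 and 0.59). The neighbours of MSH4 were ktn1 and ATG2B, which were not called for morph in starved fish (0.03 ± 0.11 and -0.01 ± 0.14, edgeR adjusted p = 0.842 and 0.981), the comparison in which MSH4 was. In control fish ktn1 was called (0.33 ± 0.11, edgeR adjusted p = 0.0212). Next to mnd1, plrg1 was called in neither treatment (0.12 ± 0.07 in control and 0.11 ± 0.07 in starved fish, edgeR adjusted p = 0.17 and 0.242), while tasp1, which lay further off, was called in both (0.87 ± 0.15 and 0.77 ± 0.16, edgeR adjusted p = 0.000224 and 0.00115).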

How the data were processed

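Bulk RNA sequencing of 22 ovary libraries was deposited as counts of reads per gene and as a scaled CPM table. Per the submitters' processing notes STAR 2.7.10b and RSEM were used; the build, annotation and strand setting are not stated in the labels. The deposited counts were tested as whole numbers, and 4 rows that name no gene were left out. The scaled CPM deposited by the authors, a signal whose scaling the labels do not describe, served for 1 alternative, limma on log2(value + 1).

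The 8 groups of morph, batch and treatment were fitted together with edgeR 4.0.16 (R 4.3.3), with TMM factors and a quasi-likelihood test, on 15607 genes passing filterByExpr (minimum count 10, total 15). Batches were averaged by contrast, and a comparison over both gives them equal weight. A shared estimate of spread came from 14 residual degrees of freedom, and the biological coefficient of variation was 22.4%. The 19 comparisons were each adjusted over all genes. Scripts were tested on simulated data. The 5 genes, the meiosis lists and the marker lists were chosen with earlier results of these data known. Genes named from the lists were taken from the 4 per comparison with the smallest p among those called, with the exceptions stated; the other list genes are counted and not described. Alternatives were DESeq2 1.42.0, limma 3.58.1 on scaled CPM, voom with sample weights, RLE factors, no filter, the groups of a comparison alone, a replicate block, and leaving out each library; the fits of list genes without the library that stood apart were chosen after seeing the data. At 15 to 316 counts per library, counting error is part of the spread of these genes. Promoter and protein sequences were not used here.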

Additional observations from a re-analysis of the deposited data

Results flagged for a closer look

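YTHDC2 in starved Pachón fish of the old batch had 26.1 CPM in replicate 3, against 36.7 to 38.4 CPM in the other replicates. The gap to the nearest of these was 0.865 of the range of the group, above Dixon's 95% critical value for 4 samples. It was the 1 outlying value in 15 tests (5 genes in 3 groups of 4 libraries), and chance flags about 1 in 20 groups. Without that replicate, the starved against control change of YTHDC2 in Pachón ovaries of the old batch was 0.0153, against -0.10 ± 0.24 with it.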

How the results depend on the processing

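Of the 5 genes, the number called for starvation in surface ovaries over both batches was 1, against 3 with DESeq2 (hormad1, mnd1 and YTHDC2), 2 with limma on scaled CPM (hormad1 and YTHDC2), 0 with the groups of the comparison alone and 0 with voom, and 0 to 2 in fits without 1 library. In the new batch alone it was 1, against 0 with the groups alone, 0 with voom, and 0 to 2 without 1 library. In starved fish of the new batch, Pachón against surface, it was 1, against 0 with the groups alone, 0 with voom, and 0 to 1 without 1 library. Without 1 library the number was 2 to 4 in starved fish over both batches, 1 to 3 in starved fish of the old batch, and 0 to 1 for the difference of the starvation response between morphs. With voom, 2 were called in starved fish over both batches (sycp1 and hormad1). In control fish it was 2 in every fit without 1 library. Of 15 calls over the 19 comparisons, 9 were kept in all 22 such fits. The cause was not tested.

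Values that changed sign were all uncalled in the edgeR fit of all libraries. For hormad1, starved against control in Pachón fish of the new batch was 0.0119 with DESeq2, 0.012 with the groups alone, 0.0334 without a filter, 0.0117 with RLE and 0.000964 with voom, and -0.0883 to 0.0867 without 1 library; in surface fish of the old batch it was -0.000535 to 0.973. For sycp1, starved against control was 0.00888 with voom and -0.217 to 0.109 without 1 library in Pachón fish, and -0.0433 to 0.282 in surface fish of the new batch. For mnd1 in starved fish of the old batch, Pachón against surface was -0.00966 with limma, -0.014 without a filter and -0.0895 with voom, and -0.0693 to 0.0913 without 1 library; in control fish of the old batch it was -0.148 to 0.206, and the difference of the response was -0.234 to 0.00681. For MSH4 the range was -0.00326 to 0.343 between morphs in control fish, and for starvation -0.00646 to 0.312 in Pachón fish of the new batch and -0.35 to 0.747 in surface fish of the old batch. For YTHDC2 between morphs it was -0.202 to 0.0887 in control fish, -0.164 to 0.421 in those of the new batch and -0.119 to 1.6 in starved fish of the new batch. The value of 1.6 came without surface starved replicate 1, which keeps only the library that stood apart in that group. The starvation range of YTHDC2 was -0.175 to 0.0153 in Pachón fish of the old batch. For old minus new batch in surface fish it was -0.558 to 1.16. Old against new was -0.0131 with limma and -0.0862 to 0.114 for mnd1 over both morphs, -0.00247 to 0.386 in Pachón and -0.337 to 0.048 in surface fish. It was -0.0926 to 0.189 for YTHDC2 over both morphs and -0.425 to 0.151 in Pachón fish, and -0.513 to 0.205 for sycp1 in Pachón fish and -0.0916 to 0.639 for Pachón minus surface.

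Same-numbered starved and control libraries showed no clear shared deviation from their group means (r from -0.19 to 0.113, over 0.1 in 1 of 10 pairs). These pairs are not independent, because deviations from the mean of 2 libraries mirror each other. Each new-batch set thus gave a single value (-0.19 in surface and -0.048 in Pachón fish). The numbers were not treated as pairs. With a replicate block the number of the 5 genes called was the same in all 19 comparisons, hormad1 in surface fish had 1.02 (edgeR adjusted p = 0.0298), the calls over all genes there were 672 against 1216, and old against new for hormad1 in Pachón fish was 0.0249. The groups alone could not be fitted apart where a comparison uses all 8 groups. Groups of 2 libraries limit the batch comparisons, and a surface library held as few as 15 counts of sycp1 or hormad1.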
